A study of Rattus norvegicus with 132 samples.

Results

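The corticomedullary junction was set against the cortex within the kidneys of RM rats, 1 of the rat models of acute kidney injury after trauma in the series, to ask which differences between the areas exist in the injured kidney itself. Regions of interest (ROIs) were chosen by their sample titles, 8 ROIs labelled RM and CMJ and 9 ROIs labelled RM and C, which make 17 of the 132 ROIs of the series. They come from GeoMx spatial profiling of formalin-fixed, paraffin-embedded rat kidney, in which barcoded probes of a mouse whole-transcriptome panel are released by light from hand-picked areas and counted by sequencing. The groups used are RM junction, RM cortex and RM medulla (8, 9 and 9 ROIs), RM-HS junction and cortex (17 ROIs together) and Sham junction and cortex (18 ROIs together), with 3 rats behind each of RM, RM-HS and Sham. The remaining ROIs, from HS kidneys, glomeruli and other medulla, entered the fit and its spread, apart from 1 glomerular ROI. RM and HS are not spelled out in the labels, and the injury is called by these letters throughout. Strain, sex, age, agent and time after injury are not given in the sources used here. An ROI holds every cell that lies in it, so fewer cells of a type and less RNA per cell cannot be told apart in any value given here.

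The proximal tubule reclaims most of the filtered sugar, amino acids and phosphate. Its convoluted part lies in the cortex and takes up glucose and phosphate with high capacity, and its straight part runs down through the junction with another set of amino acid and organic ion transporters. The straight part has little reserve when oxygen or ATP runs short, and injured tubule cells are known for displaying and shedding kidney injury molecule 1, the product of Havcr1, and for filling with lipid droplets. The proximal tubule also makes glucose from lactate and amino acids and breaks down fructose.

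The 17 ROIs fell into 3 runs of neighbouring wells on plate C, with 3, 3 and 2 junction ROIs and 3, 3 and 3 cortex ROIs. The RM-HS and RM medulla ROIs used were on plate C too, whereas the Sham well run Sham 3 was on plate E. Sham medians and ranges in this text hold both plates and are not adjusted for plate. No label ties an ROI to a rat or equates a well run with a rat. Some ROIs thus share an animal, which makes p-values over ROIs in this text too small. The spread is shared by all areas in the fit, and many genes not called in it passed when the 17 ROIs were fitted alone. Depth, taken as the summed signal of an ROI in units of its smallest step between values, ranged from 1103587 to 2305964 at the RM junction and from 710431 to 2041294 in RM cortex (exact two-sided permutation test, n = 8 and 9, p = 0.0560, adjusted p = 0.0560 over 3 features). Background, read from the negative probe, had a median of 21.9 at the junction and 26.7 in cortex (exact p = 0.0111, adjusted p = 0.0333). A median of 4047.5 genes exceeded 2 times the negative probe in junction ROIs, against 3046 in cortex ROIs (exact p = 0.0439, adjusted p = 0.0560), and the part of these library differences in the results was not tested. Across genes, pairs of junction ROIs had a median r of 0.951 on the log2 scale, pairs of cortex ROIs 0.914 and mixed pairs 0.858.

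At the RM junction 557 genes were higher than in RM cortex (6.31% of the 8827 tested) and 182 were lower (2.06%), 739 in all (8.37%), and under quantile normalization the split was 518 higher and 296 lower. The balance turned when the 17 ROIs were fitted alone, with 1263 higher and 2003 lower (1277 and 1963 with the well run as a fixed term), and was 987 higher and 787 lower with a variance weight for each area. Values are Q3-normalized signal, the unit of the deposited table, in which the 75th percentile of every ROI was 58.2. Differences are log2 fold changes of signal plus 1 with the standard error, junction over cortex, from limma with Benjamini-Hochberg adjustment over all genes tested, and a gene is called at an adjusted p under 0.05. The added 1 shrinks the differences of genes with low signal, and so does background, which was not subtracted in the main fit. The median gene had a log2 fold change of -0.10, which the subtraction of the negative probe moved to 0.07. Of the 557 higher genes, 358 had junction and cortex ranges that did not overlap, as had 114 of the 182 lower genes, against 424 (4.8%) and 179 (2.0%) of all genes tested. When the ROIs of an area in a well run were averaged first, 308 genes passed, and the count was 452 without the well run RM 1 and 457 without RM 3.

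Several transporters and enzymes of the straight proximal tubule were higher at the RM junction. Slc7a13, an amino acid transporter that marks the straight segment and had the largest log2 fold change of all genes called higher, ran from 1532 to 2345 (median 1957) in RM junction ROIs and from 35.8 to 55.1 (median 45.3) in RM cortex ROIs. The ranges lay far apart in every well run, and the log2 fold change was 5.37 ± 0.18 (adjusted p = 8.18e-61). Slc3a1, the heavy subunit that carries such transporters to the brush border in cystine uptake, ran from 3059 to 4923 (median 3471) at the RM junction and from 286 to 608 (median 408) in RM cortex. Here too the ranges did not overlap, and the log2 fold change was 3.11 ± 0.20. Slc22a2, an uptake carrier for organic cations, ran from 385 to 596 (median 487) at the RM junction and from 45.2 to 67.2 (median 55.8) in RM cortex, without overlap and with a log2 fold change of 3.07 ± 0.16. The RM junction was also higher for Slc6a18, a carrier of neutral amino acids (2.32 on the log2 scale), for the glutamine transporter gene Slc38a3 (2.61), for glutamine synthetase Glul (1.55) and for the ascorbate transporter gene Slc23a1 (1.33). Gng13, a G protein gamma subunit, shared the pattern with a log2 fold change of 2.57 ± 0.15.

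Of 8 straight tubule markers tested, 6 were higher at the RM junction (6.31% of all genes) and the other 2 did not pass. Their median log2 fold change was 1.49 against -0.10 over all genes. The same 6 genes were higher at the Sham junction, where 6.94% of all genes were higher, with a median of 2.10. Median signal of Slc7a13 was 1957 at the RM junction and 45.3 in RM cortex, beside 1648 at the Sham junction and 55.1 in Sham cortex. For Slc3a1 the medians were 3471 and 408 in RM, beside 2698 and 207 in Sham, and for Slc6a18 they were 345 and 73.4 in RM, beside 437 and 67.3 in Sham. Markers of the straight segment were thus present at the junction of the injured kidney, with medians above those of the Sham junction for Slc7a13 and Slc3a1 and below it for Slc6a18, comparisons that were not tested. In limma no marker of the list passed the test of the difference between the RM and the Sham area difference (passed by 0.793% of all genes). The median of that difference over the list was -0.34. An unadjusted p under 0.05 was found for 3 of the 8, and for 456 of all 8827 genes. Of these 3, Glul was at -0.81 ± 0.34 (adjusted p = 0.576) and Slc7a13 at 0.57 ± 0.24 (adjusted p = 0.627). The difference between RM and RM-HS passed for 1 of the 8, in the negative direction (0.17% of all genes).

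**Figure D1:**
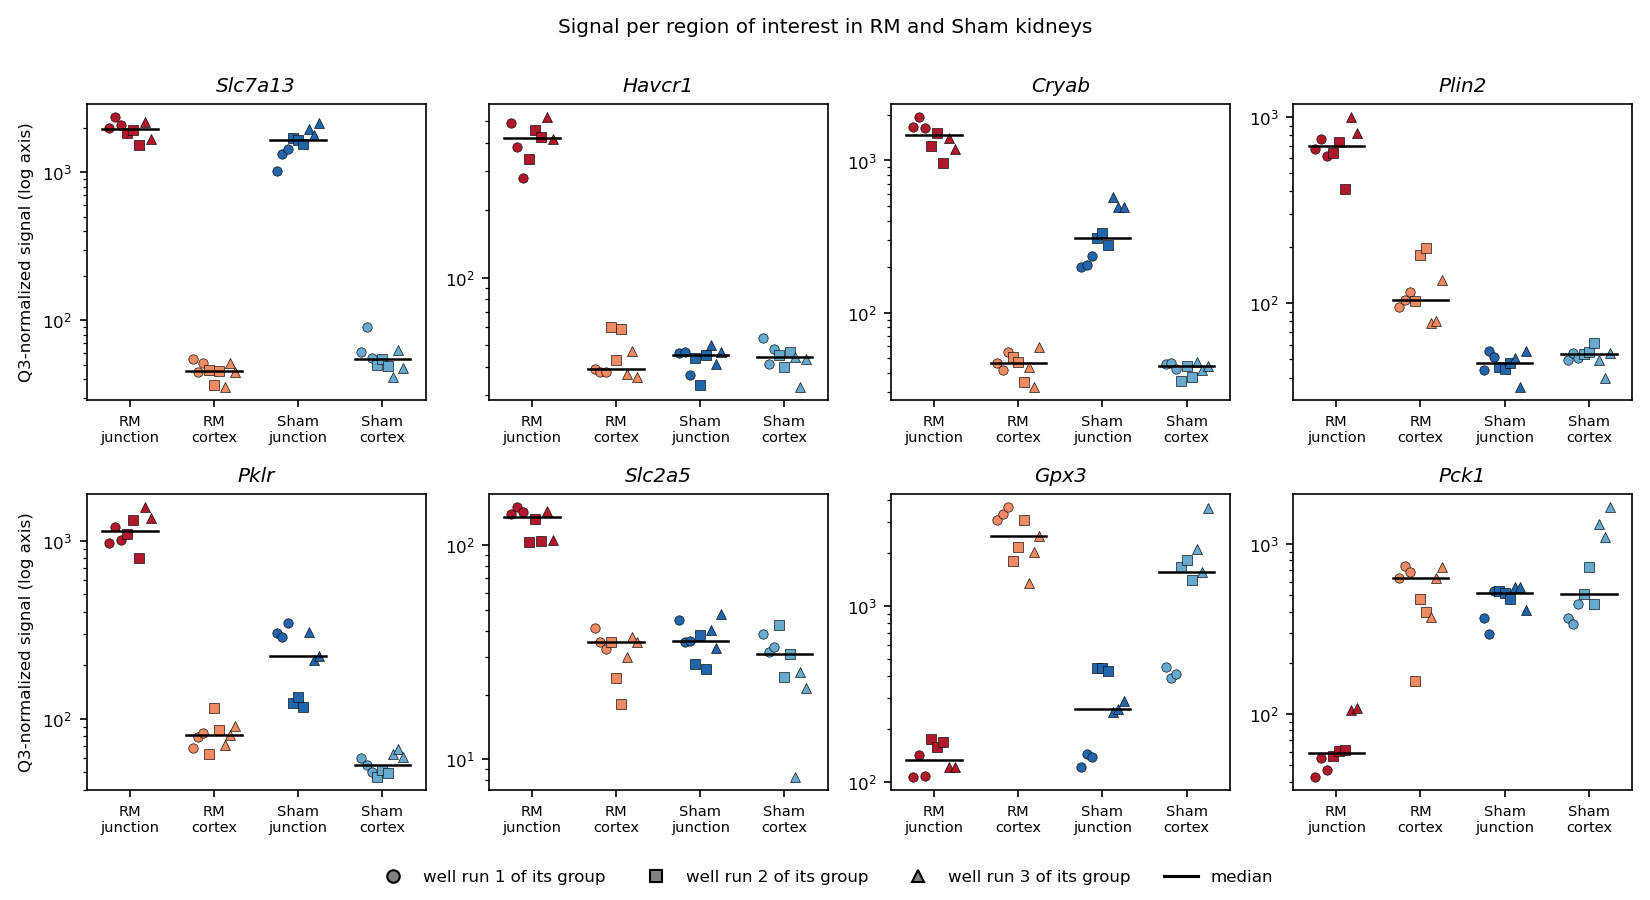
Q3-normalized signal on a log axis for 8 genes, with 1 point per ROI, the marker shape giving the well run within its group and the black line the median. Slc7a13 is high at both junctions, Havcr1, Plin2 and Slc2a5 are higher in every RM junction ROI than in any ROI of the other 3 groups drawn, and Pck1 is low there with a median of 58.7.

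Genes of the convoluted proximal tubule ran the other way. Slc4a4, the basolateral bicarbonate exporter, ran from 33.5 to 48.5 (median 43.4) at the RM junction and from 306 to 639.7 (median 538) in RM cortex. The ranges did not overlap, and the log2 fold change was -3.51 ± 0.20 (adjusted p = 2.06e-35). Slc22a8, an organic anion transporter, ran from 29.3 to 44.1 (median 36.0) at the RM junction and from 151 to 463 (median 332) in RM cortex, without overlap (-2.96 ± 0.24 on the log2 scale). Slc5a2, the high-capacity glucose transporter, had a log2 fold change of -2.13 ± 0.20, with a junction median of 22.4 that is 1.05 times the negative probe. Of 18 convoluted tubule markers tested, 12 were lower at the RM junction (2.06% of all genes), with a median of -1.05 over the list. Slc17a3, an organic anion transporter, was higher (1.34), as were 6.31% of all genes. In Sham 9 of the 18 were lower (0.963% of all genes) and 2 higher, with a median of -0.49. Slc13a3, the dicarboxylate transporter gene, was the single member whose difference between RM and Sham passed (-1.06 in RM, 0.11 in Sham, adjusted p = 0.00648 for the difference). Whether that call held under the alternative fits was not examined, nor was it for Ppp1r1a and Hpd below. The phosphate transporter genes Slc34a1 and Slc34a3 were lower at the RM junction (-1.17 and -1.30), as was the organic anion transporter gene Slc22a6 (-1.29).

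Beyond the proximal tubule, all 3 distal tubule markers tested were lower at the RM junction (2.06% of all genes). Slc12a3, the thiazide-sensitive cotransporter, ran from 21.7 to 39.0 (median 31.8) there and from 83.7 to 663 (median 219) in RM cortex, a wide but separate range (-2.83 ± 0.20 on the log2 scale). Kl, the FGF23 co-receptor klotho, had a log2 fold change of -1.54 ± 0.18, and Slc8a1, a sodium-calcium exchanger, one of -1.07 ± 0.16. Of 6 collecting duct markers 4 were lower (2.06% of all genes), and 2 were with the negative probe subtracted or under median-ratio scaling. The water channel genes Aqp2 and Aqp3 stood at -1.08 and -0.69 and the steroid dehydrogenase gene Hsd11b2 at -0.85. The calls of Aqp3 and of the intercalated cell factor Foxi1 (-0.51) ended whichever of the 3 RM well runs was left out (adjusted p from 0.0738 to 0.433 for Aqp3 and from 0.0626 to 0.134 for Foxi1). At the Sham junction 3 of 9 thick ascending limb markers were higher (6.94% of all genes). At the RM junction 1 was higher and 1 lower (6.31% and 2.06% of all genes), with a median of -0.14. Slc12a1, the loop diuretic-sensitive cotransporter, was the higher one (1.26 ± 0.20). Slc12a1 had medians of 137 at the RM junction and 52.6 in RM cortex, beside 307 and 52.8 in Sham, and its difference between RM and Sham did not pass. Egf, a growth factor made in this segment, was the lower one (-0.59 ± 0.19) and was higher at the Sham junction (0.76 ± 0.19), and that difference between RM and Sham passed (-1.35 ± 0.27, adjusted p = 6.05e-04) but not with 1 mean per well run (0.183). A second member, the phosphatase inhibitor gene Ppp1r1a, differed from Sham as well (-1.03 ± 0.20, adjusted p = 4.68e-04), with -0.14 in RM, which did not pass, and 0.89 in Sham. The lower call of Egf in RM ended without any 1 of the 3 RM runs (adjusted p from 0.0696 to 0.48).

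Markers of other cell types are given by list, beside 8.37% of all genes called. In limma none of 7 podocyte markers was called, with 1 at an unadjusted p under 0.05, and their summed signal ranged from 216 to 260.3 at the RM junction and from 230.4 to 300.3 in RM cortex. No podocyte marker had a median above 2 times the negative probe in either area. Sema3g of that list (-0.45) was called lower in 4 of 16 alternative limma fits (lowest adjusted p = 3.51e-04). None of 5 endothelial markers was called in limma (1 at an unadjusted p under 0.05), among them Cdh5 and Plvap at -0.36 and -0.25, with sums from 215 to 257 at the RM junction and from 219 to 288 in RM cortex. Cdh5 was called lower in 3 of 15 alternative limma fits and Plvap in 2 of 16 (lowest adjusted p = 0.00467 and 0.023). Among 6 stromal markers, the smooth muscle gene Tagln was higher (0.90 ± 0.20), a call that ended with 1 mean per well run (adjusted p = 0.168), with sums from 273 to 333 at the RM junction and from 247 to 292 in RM cortex. Among 7 leukocyte markers, the antigen presentation gene Cd74 was lower (-0.64 ± 0.22), with sums from 260.4 to 339 at the RM junction and from 318 to 407 in RM cortex. That call ended when any 1 of the 3 RM well runs was left out (adjusted p from 0.0804 to 0.421). None of 5 skeletal muscle and erythroid genes was called in limma or had an unadjusted p under 0.05, with the hemoglobin gene Hba-a1 at 0.54 ± 0.32 and the muscle creatine kinase gene Ckm at -0.29 ± 0.17. Ckm was called lower in 2 of 15 alternative limma fits and Hba-a1 higher in 1 of 16 (lowest adjusted p = 0.00262 and 0.0334). Markers not named were not examined in every alternative fit. No gene was at 0 in any ROI, and the part of these cell types in the results was not tested.

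Among the injury genes, a few members were strongly higher at the RM junction. Havcr1 ran from 277 to 519 (median 419) at the RM junction and from 35.8 to 60.2 (median 39.0) in RM cortex. In Sham it ran from 33.2 to 49.7 (median 45.2) at the junction and from 32.6 to 53.9 (median 44.3) in cortex, so that every RM junction ROI stood above every ROI of the other 3 groups. The log2 fold change of junction over cortex was 3.22 ± 0.18 in RM and -0.02 ± 0.17 in Sham, and their difference was 3.23 ± 0.25 (adjusted p = 2.35e-22). Cryab, a small heat shock protein of the alpha-crystallin family, ran from 969 to 1918 (median 1462) at the RM junction and from 32.6 to 59.2 (median 46.3) in RM cortex, beside Sham medians of 307 and 44.5. It was higher at the junction in both groups (4.94 ± 0.22 in RM, 2.89 ± 0.21 in Sham), with more in RM (2.05 ± 0.30, adjusted p = 2.89e-07). The last call ended with the negative probe subtracted (adjusted p = 0.086) and with 1 mean per well run (0.124). Sox9, a transcription factor of regenerating tubule cells, ran from 80.6 to 120.5 (median 93.7) at the RM junction and from 15.1 to 36.3 (median 30.3) in RM cortex (1.74 ± 0.18). Its difference from Sham was 1.02 ± 0.25 (adjusted p = 0.0114) and was not called without RM 2, RM 3 or Sham 2 (adjusted p = 0.0955, 0.0635 and 0.195), nor with the negative probe subtracted (0.986) or 1 mean per well run (0.9999).

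Of 16 injury and repair genes tested, 4 were higher at the RM junction (6.31% of all genes), the last being the annexin gene Anxa2 (0.57). Of the 16, 1 was lower (2.06% of all genes), and the list had a median of 0.03. Gdf15, a stress-induced secreted cytokine, was the lower one. It ran from 117 to 394 (median 171) at the RM junction and from 351 to 626 (median 556) in RM cortex, with Sham medians of 71.0 at the junction and 58.2 in cortex. Both RM areas thus lay above the Sham medians, the cortex more so. The log2 fold change in RM was -1.37 ± 0.19, and it differed from Sham by -1.51 ± 0.27 (adjusted p = 4.96e-05), which was not called with 1 mean per well run (0.809). Spp1, the secreted phosphoprotein osteopontin, did not pass (0.82 ± 0.29, adjusted p = 0.0608), and neither did the keratin genes Krt8 (-0.31) and Krt18 (-0.46).

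**Figure D2:**
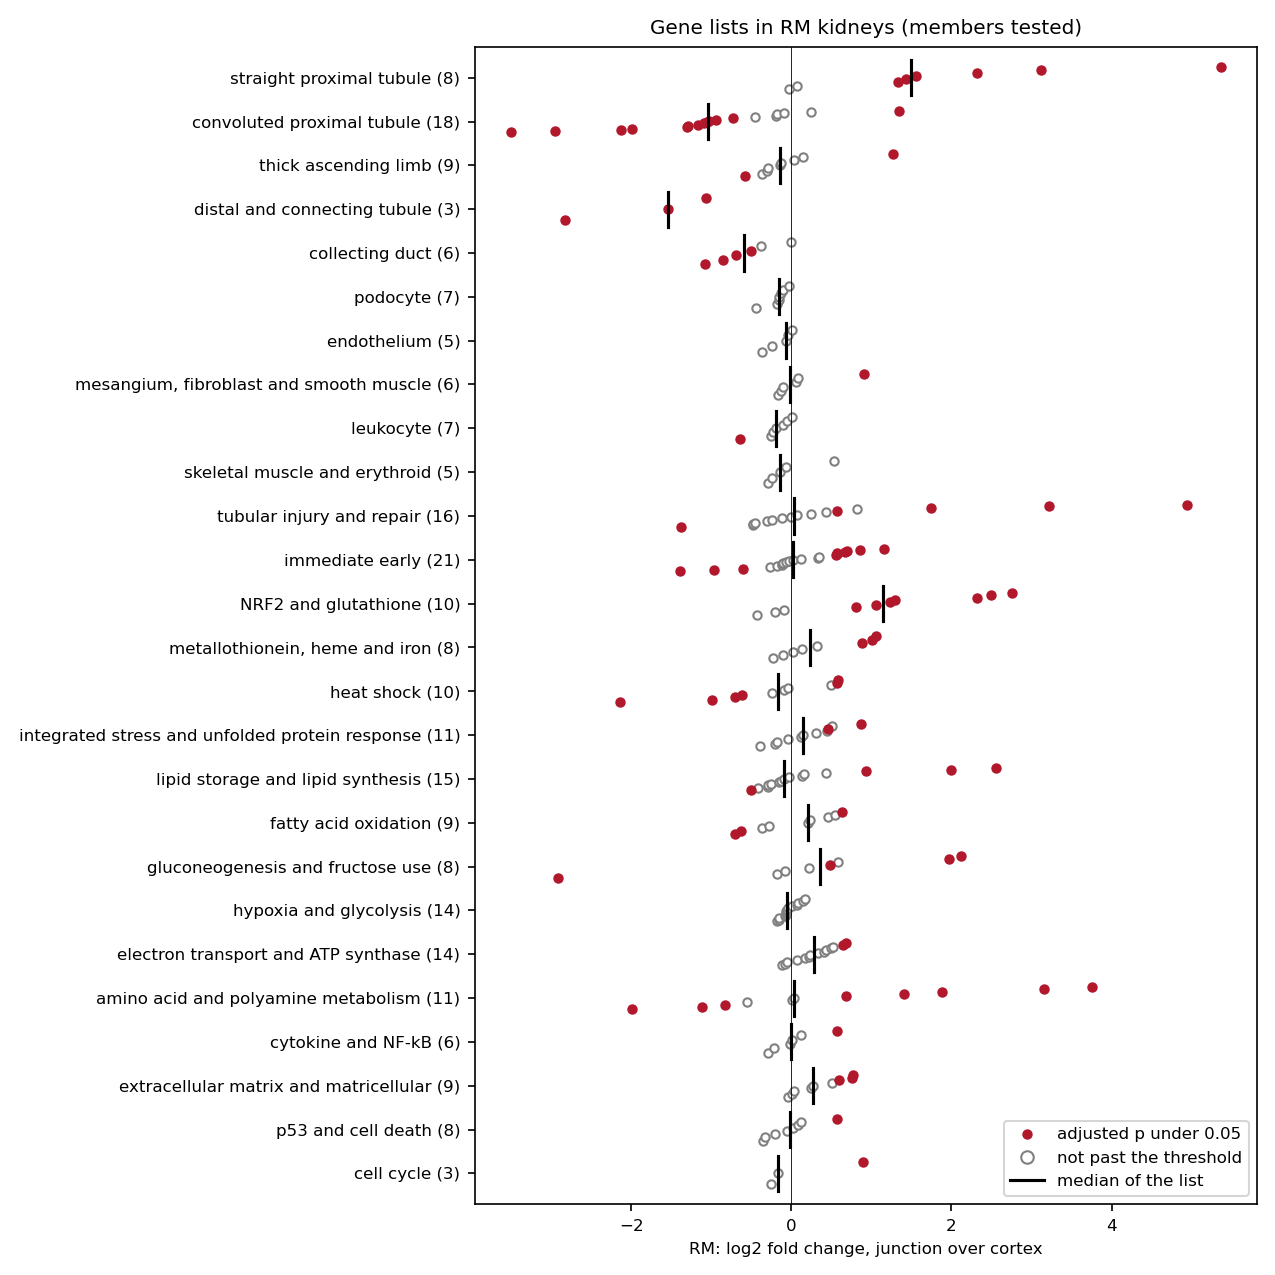
Log2 fold change of RM junction over RM cortex for the tested members of 26 gene lists, 1 point per gene, filled where the adjusted p was under 0.05, with a bar at the median of each list. The straight tubule list has a median of 1.49 and the convoluted tubule list one of -1.05, while the injury list spreads widely around 0.03.

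Lipid storage was marked by Plin2, which coats lipid droplets. Plin2 ran from 409 to 994 (median 700.4) at the RM junction and from 78.3 to 199 (median 105) in RM cortex. In Sham it ran from 35.8 to 55.3 (median 47.8) at the junction and from 39.5 to 61.1 (median 53.4) in cortex, so that RM cortex also lay above every Sham ROI of both areas. The log2 fold change of junction over cortex was 2.56 ± 0.21 in RM (adjusted p = 2.48e-21) and -0.12 ± 0.20 in Sham, and the difference between them was 2.68 ± 0.29 (adjusted p = 9.91e-13). Acly, which makes acetyl-CoA for lipid synthesis from citrate, ran from 214 to 342 (median 265) at the RM junction and from 52.0 to 79.1 (median 74.4) in RM cortex, against Sham medians of 54.3 and 55.4. It was higher in RM (1.99 ± 0.13), and the difference from Sham was 2.01 ± 0.18 (adjusted p = 2.27e-18). Of 15 lipid storage and synthesis genes, 3 were higher (6.31% of all genes), the other being the triglyceride-forming enzyme Dgat2 (0.94 ± 0.18). The fatty acid elongase gene Elovl6 was lower (-0.50 ± 0.16), a call that ended when any 1 of the 3 RM runs was left out (adjusted p from 0.101 to 0.32), and the list had a median of -0.10, the same as all genes. The sterol synthesis gene Hmgcs1 did not pass (-0.29).

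Pklr, Slc2a5, Khk and Gpi1 were higher at the RM junction. Pklr, the liver-type pyruvate kinase, ran from 800.2 to 1536 (median 1139) at the RM junction and from 63.2 to 116 (median 80.9) in RM cortex, with Sham medians of 226 and 55.0. The ranges in RM did not overlap (3.80 ± 0.17), and the difference from Sham was 1.90 ± 0.24 (adjusted p = 1.48e-09). Slc2a5, the fructose transporter, ran from 103 to 150.4 (median 136) at the RM junction and from 18.1 to 40.9 (median 35.4) in RM cortex. Its Sham medians were 35.7 at the junction and 31.0 in cortex, close to RM cortex, and the difference between RM and Sham was 1.54 ± 0.25 (adjusted p = 3.57e-06). Khk, ketohexokinase, was higher at both the RM junction (2.12 ± 0.16) and the Sham junction (1.77 ± 0.16). Gpi1, glucose phosphate isomerase, was higher at the RM junction (1.72 ± 0.15) by 1.29 ± 0.21 more than in Sham (adjusted p = 3.57e-06). The difference from Sham of Gpi1 was not called with 1 mean per well run (adjusted p = 0.121).

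The 2 marker enzymes of glucose formation parted. Pck1, phosphoenolpyruvate carboxykinase, ran from 42.9 to 109 (median 58.7) at the RM junction and from 156 to 741 (median 629) in RM cortex. In Sham it ran from 294 to 559 (median 511) at the junction and from 339 to 1637 (median 504) in cortex, so that the RM junction was below the other 3 groups without overlap. The log2 fold change was -2.91 ± 0.28 in RM (adjusted p = 7.41e-17) and -0.50 ± 0.27 in Sham, and they differed by -2.41 ± 0.39 (adjusted p = 3.57e-06), which was not called with 1 mean per well run (0.166). G6pc, glucose 6-phosphatase, ran from 199 to 517 (median 316) at the RM junction and from 118 to 312 (median 236) in RM cortex, which overlap, and did not pass (0.58 ± 0.22, adjusted p = 0.0872). G6pc was called higher in 6 of 16 alternative limma fits (lowest adjusted p = 0.00704), with log2 fold changes from 0.15 to 1.03 over the 16. At the Sham junction it was lower than in Sham cortex (-2.08 ± 0.21), with medians of 56.9 and 257, and the difference between RM and Sham was 2.66 ± 0.30 (adjusted p = 7.75e-12). In the RM well runs the G6pc difference was -0.23, 1.34 and 0.62. Of 8 genes of glucose formation and fructose use, 3 were higher at the RM junction (6.31% of all genes). In the list 1 was lower (2.06% of all genes), and the median was 0.35. The other higher gene was Slc37a4, the carrier of glucose 6-phosphate into the endoplasmic reticulum (0.48 ± 0.15), a call that ended when any 1 of the 3 RM runs was left out (adjusted p from 0.111 to 0.211) and under quantile normalization (0.14). For the difference from Sham 2 of the 8 were positive (0.34% of all genes) and 1 negative (0.453%).

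Since Pklr and Pck1 moved apart at the same place, their promoter windows are shown, taken from RefSeq (rat assembly GRCr8) as the 250 bases before the start of each gene. The motifs were chosen after the values were seen. Capitals mark the carbohydrate response element, searched as the half-sites CANGNG and CNCNTG with 5 bases between them, in Pklr (chr2:176841014-176841263, plus strand) and the cAMP response element, searched as TNACGTNA, in Pck1 (chr3:182348322-182348571, plus strand), both on either strand.
Pklr: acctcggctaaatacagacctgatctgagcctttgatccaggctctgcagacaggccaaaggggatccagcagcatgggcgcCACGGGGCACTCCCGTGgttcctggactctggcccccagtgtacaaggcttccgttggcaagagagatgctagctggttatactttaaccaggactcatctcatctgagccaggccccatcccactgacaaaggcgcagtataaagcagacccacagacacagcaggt
Pck1: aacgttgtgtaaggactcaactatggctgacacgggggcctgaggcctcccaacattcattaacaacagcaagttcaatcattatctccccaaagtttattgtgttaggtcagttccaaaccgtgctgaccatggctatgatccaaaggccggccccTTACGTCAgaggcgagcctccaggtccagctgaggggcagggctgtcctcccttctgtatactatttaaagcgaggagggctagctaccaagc
The match in Pklr, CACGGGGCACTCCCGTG, lay 168 to 152 bases before the start, and that in Pck1, TTACGTCA, 93 to 86 bases before it, neither overlapping the other motif. The first motif occurred in 158 of 33469 windows of this length (0.47%) and the second in 1387 (4.14%). The windows of Slc2a5, Khk, Gpi1 (Gpi in rat), Acly, G6pc (G6pc1 in rat) and Pck1 do not hold the letters of the first motif, and the window of G6pc holds those of the second. In all, 3 motifs were searched in 13 windows of 12 genes, the other being the E-box CACGTG (5.59% of all windows), which of these genes was matched in Plin2 alone, in 1 of its 2 windows. These matches describe the sequence only.

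Genes of glutathione synthesis were higher at the junction in both RM and Sham. Gclm, the modifier subunit of the rate-limiting enzyme, ran from 1482 to 2657 (median 2339) at the RM junction and from 149 to 733 (median 305) in RM cortex, and its catalytic partner Gclc ran from 106 to 236 (median 176) at the RM junction and from 22.2 to 42.9 (median 28.7) in RM cortex. Neither pair of ranges overlapped, with log2 fold changes of 2.75 ± 0.23 and 2.50 ± 0.22. Gss, glutathione synthetase, stood at 2.31 ± 0.18. At the Sham junction 7 of 10 NRF2 and glutathione genes tested were higher (6.94% of all genes), with a median of 1.26. At the RM junction 7 were higher (6.31% of all genes), with a median of 1.15. These included the NRF2 targets Osgin1 (1.29), Sqstm1 (1.23) and Txn1 (0.81) in RM. Nqo1 (-0.20) and the cystine importer gene Slc7a11 (-0.42) did not pass. The Gclm difference was smaller in RM than in Sham (-1.46 ± 0.32, adjusted p = 0.00204): medians were 2339 at the RM junction and 305 in RM cortex, beside 1413 and 67.7 in Sham. That call ended without RM 1 or RM 2 (adjusted p = 0.052 and 0.148) and with 1 mean per well run (0.9999).

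Gpx3, the secreted glutathione peroxidase, had the lowest log2 fold change of the genes called. It ran from 107 to 176 (median 133) at the RM junction and from 1344 to 3609 (median 2489.6) in RM cortex, far apart (-4.16 ± 0.30, adjusted p = 4.76e-26). In Sham it ran from 122 to 446 (median 259) at the junction and from 387 to 3579 (median 1552) in cortex (-2.20 ± 0.29). The difference between RM and Sham was -1.97 ± 0.41 (adjusted p = 0.00117) and was not called without RM 1 (adjusted p = 0.149) or with 1 mean per well run (0.9999). The lysosomal cathepsin genes Ctsh (-1.75 ± 0.17) and Ctsa (-1.73 ± 0.20) and Klk1b26, a kallikrein gene by its mouse symbol (-2.30 ± 0.23), were also among the 12 largest falls.

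Iron and metal storage genes were higher at the RM junction in 3 of 8 members tested (6.31% of all genes), with a median of 0.23. Fth1 and Ftl1, the heavy and light ferritin chains, had log2 fold changes of 1.01 ± 0.20 and 1.06 ± 0.19, and the metallothionein gene Mt2 one of 0.88 ± 0.19. Mt2 ran from 2349.7 to 4373 (median 3144) at the RM junction and from 1098 to 2683 (median 1702) in RM cortex, which overlap. With quantile normalization none of the 3 passed (log2 fold change 0.35, 0.33 and 0.41), and with 1 mean per well run Fth1 and Mt2 did not (adjusted p = 0.108 and 0.282).

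Amino acid metabolism split by enzyme. Aadat, which handles kynurenine and aminoadipate, ran from 747 to 908 (median 825) at the RM junction and from 51.0 to 71.5 (median 57.6) in RM cortex (3.76 ± 0.18), and Odc1, the first enzyme of polyamine synthesis, ran from 499 to 758 (median 622) at the RM junction and from 53.1 to 81.6 (median 71.6) in RM cortex (3.16 ± 0.17). Neither overlapped, and ornithine aminotransferase Oat (1.88) and glutamate dehydrogenase Glud1 (0.68) were higher too. Lower at the RM junction were Gatm of creatine synthesis (-1.995 ± 0.23), the tyrosine catabolic enzyme Hpd (-1.12) and argininosuccinate synthase Ass1 (-0.83). Of 11 genes 5 were higher and 3 lower (6.31% and 2.06% of all genes), with a median of 0.04. Under quantile normalization 4 were higher and 5 lower, with a median of 0.05. Mat2a, which makes S-adenosylmethionine, was higher at the junction by less in RM (1.40 ± 0.15) than in Sham (3.32 ± 0.14), a difference of -1.92 ± 0.21 (adjusted p = 7.70e-13). Its medians were 851 at the RM junction and 299 in RM cortex, beside 2191 and 192 in Sham. Hpd also differed from Sham (0.02 in Sham, adjusted p = 0.00301 for the difference).

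Heat shock genes of the inducible kind were higher in RM cortex than at the junction in some well runs. Hspa1a, the inducible chaperone, ran from 24.2 to 65.9 (median 35.2) at the RM junction and from 26.3 to 495 (median 273) in RM cortex (-2.14 ± 0.30, adjusted p = 2.71e-09). The cortex ROIs of runs RM 1 and RM 2 spanned 252 to 299 and 354 to 495, whereas those of RM 3 spanned 26.3 to 35.9, within the range of the junction, so that the per-run differences were -2.90, -3.25 and -0.14. Its differences from Sham (-2.02 ± 0.41, adjusted p = 7.82e-04) and from RM-HS (-1.999 ± 0.42, adjusted p = 0.00446) were not called without RM 1 (adjusted p = 0.139 and 0.573) or without RM 2 (0.144 and 0.764). Zfand2a, an arsenite- and heat-inducible gene, was lower at the junction (-0.70 ± 0.18) with per-run differences of -1.16, -1.37 and 0.65. Of the 74 called genes whose runs were compared, Zfand2a alone had another sign in 1 run. It was not called without RM 1 or RM 2 (adjusted p = 0.432 and 0.516), and the co-chaperone gene Bag3 (-0.62 ± 0.13) and the small heat shock gene Hspb1 (-0.995 ± 0.20) were not called without RM 2 (0.126 and 0.0982). Of 10 heat shock genes 4 were lower (2.06% of all genes), with a median of -0.16. The 2 higher (6.31%) were the mitochondrial chaperonins Hspd1 (0.58) and Hspe1 (0.57). That list does not hold the small heat shock gene Cryab (4.94), given above with the injury genes. Under quantile normalization 5 of the 10 were lower and none higher in limma, and with the negative probe subtracted 2 were lower and 1 higher.

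**Figure D3:**
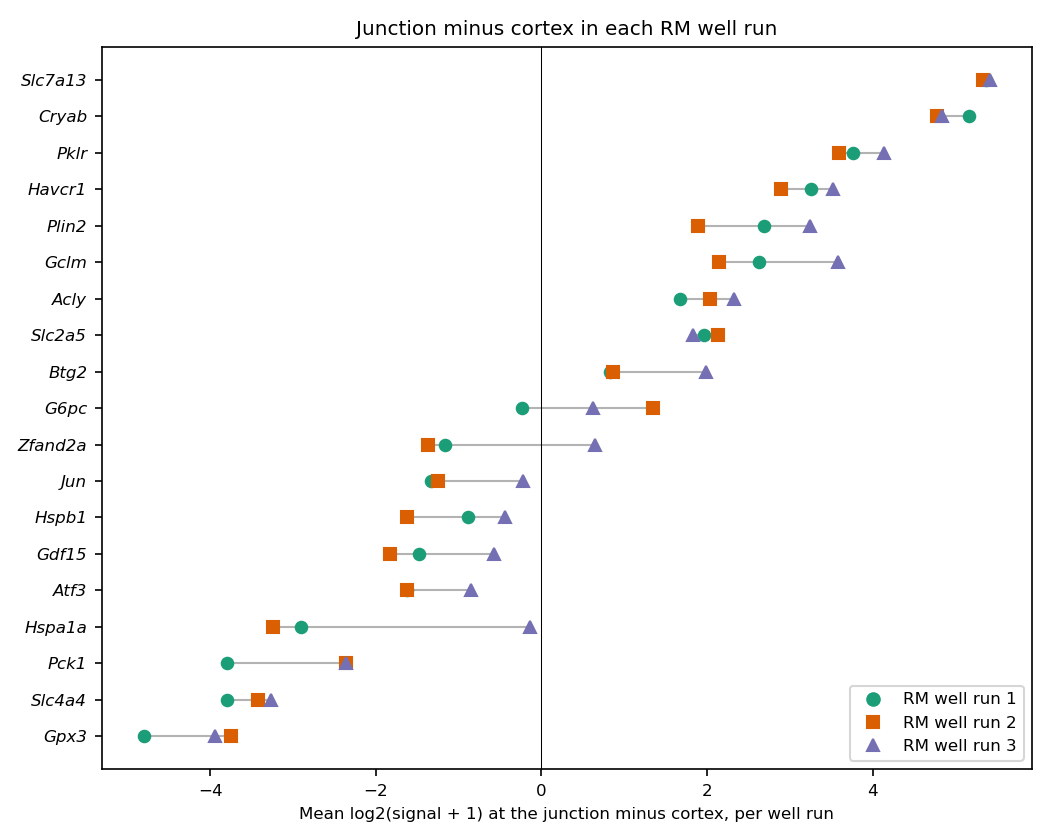
Mean log2(signal + 1) of junction ROIs minus that of cortex ROIs within each of the 3 RM well runs, for 19 of the genes named. Slc7a13 differs little between runs, whereas Hspa1a lies at -0.14 in RM 3 against -2.90 and -3.25 in the other runs.

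Immediate early genes were called in both directions. Atf3, a stress-induced repressor, ran from 89.6 to 215 (median 129.9) at the RM junction and from 259 to 517 (median 356) in RM cortex, without overlap (-1.39 ± 0.19), with Sham medians of 45.1 and 47.5. Jun (-0.97 ± 0.17) and the phosphatase gene Dusp1 (-0.60) were also lower at the RM junction. Btg2, an antiproliferative gene, ran from 328 to 843 (median 436) at the RM junction and from 150.4 to 388 (median 213) in RM cortex, which overlap (1.16 ± 0.17), and Klf4 (0.85 ± 0.15), Junb (0.70), Fosl2 (0.66) and Myc (0.57) were higher as well. Of 21 genes 7 were higher and 3 lower in RM (6.31% and 2.06% of all genes), with a median of 0.02. Under quantile normalization 2 were higher and 4 lower, and with the negative probe subtracted 4 were higher and 3 lower. In Sham none was called in limma, with 1 at an unadjusted p under 0.05. The differences from Sham passed for Atf3 (-1.30, adjusted p = 9.38e-04), Jun (-1.01, 0.00624) and Btg2 (0.99, 0.0112). Without single runs they did not: Atf3 without RM 1 (adjusted p = 0.0667), Jun without RM 1, RM 2 or Sham 1 (0.299, 0.144 and 0.11), Btg2 without RM 3, Sham 1 or Sham 2 (0.541, 0.0818 and 0.0854).

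None of 14 listed hypoxia and glycolysis genes was called in limma or had an unadjusted p under 0.05, although 2 were called lower under quantile normalization. The list held the hexokinase gene Hk1 (0.18 ± 0.13), the HIF target Ankrd37 (-0.18 ± 0.15) and Vegfa (-0.05). It did not hold the glycolysis genes Pklr and Gpi1, given above as higher at the RM junction (3.80 and 1.72). Of 14 electron transport genes, Ndufa4 (0.68 ± 0.22) and Atp5b (0.65 ± 0.22) were higher at the RM junction (6.31% of all genes). Both calls ended whichever RM run was left out (adjusted p from 0.123 to 0.225 and from 0.09 to 0.475). At the Sham junction 7 were higher (6.94% of all genes). Under quantile normalization 1 was higher in RM and 2 were lower, and under median-ratio scaling 4 were higher. With the negative probe subtracted none of the 14 was called in limma (adjusted p = 0.218 for Ndufa4 and 0.113 for Atp5b). Of 9 fatty acid oxidation genes, the thiolase gene Acaa2 (-0.71) and its regulator Ppara (-0.63) were lower (2.06% of all genes). Ech1 was higher (0.63), as were 6.31% of all genes, with 2 members higher under median-ratio scaling. With the negative probe subtracted 1 member was lower and none higher in limma. Acaa2 was not called without RM 1 or RM 2 (adjusted p = 0.133 and 0.0582), Ppara without RM 1 or RM 3 (0.277 and 0.0534), and Ech1 without any 1 of the runs (0.0727 to 0.114).

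In the lists that follow, members called higher at the RM junction stand beside 6.31% of all genes. Of 11 stress response genes the transcription factors Atf5 (0.86 ± 0.21) and Atf4 (0.46 ± 0.13) were higher. Ddit3, a further factor of that response, did not pass (-0.18). Of 9 matrix genes Thbs1 (0.77 ± 0.24), Ccn2 (0.76 ± 0.24) and Adamts1 (0.59 ± 0.15) were higher, of 6 cytokine genes Stat3 (0.57 ± 0.15), of 8 cell death genes Gadd45g (0.57 ± 0.17) and of 3 cell cycle genes cyclin D1, Ccnd1 (0.89 ± 0.15). The last was also higher at the Sham junction (1.23 ± 0.15). Atf4, Ccn2 and Gadd45g were not called without any 1 of the RM runs (adjusted p up to 0.149, 0.322 and 0.174), Thbs1 not without RM 1 or RM 3 (0.21 and 0.495), and Adamts1 and Stat3 not without RM 3 (0.0907 and 0.0968). Atf4, Thbs1, Adamts1, Stat3 and Gadd45g were not called under quantile normalization either (log2 fold changes from 0.10 to 0.33).

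Many of the RM area differences were also found in Sham. At the Sham junction 613 genes were higher than in Sham cortex (6.94%) and 85 lower (0.963%), 698 in all (7.91%), against 749 higher and 417 lower under quantile normalization. Of the genes higher at the RM junction, 343 were also higher at the Sham junction (61.6% of the RM list and 56.0% of the Sham list), and 50 genes were lower in both (27.5% and 58.8%). Across 8827 genes the area differences of RM and Sham, which share no ROI but share the probe set, had a Pearson r of 0.757 and a Spearman rho of 0.613. The difference itself passed for 70 genes (0.793%), 30 in the positive direction and 40 in the negative. With the negative probe subtracted 11 were positive and 25 negative, and 13 passed with 1 mean per well run. It passed for 33 genes without RM 1, 46 without Sham 1 and 43 without Sham 2. The 6 largest positive differences were those of Havcr1, Plin2, G6pc, Cryab, Acly and Pklr. The 6 largest negative ones were those of Pck1, Hspa1a, Gpx3, Mat2a, the transcriptional inhibitor Id4 (-1.71 ± 0.27) and the focal adhesion gene Tns1 (-1.57 ± 0.25). Id4 had a median of 50.8 at the RM junction and 43.8 in RM cortex, beside 156 and 40.2 in Sham. With 1 mean per well run the calls of Havcr1, Plin2, G6pc, Acly, Pklr, Slc2a5, Mat2a and Id4 held and those of the other 13 named genes did not, Tns1 among them (adjusted p = 0.152).

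**Figure D4:**
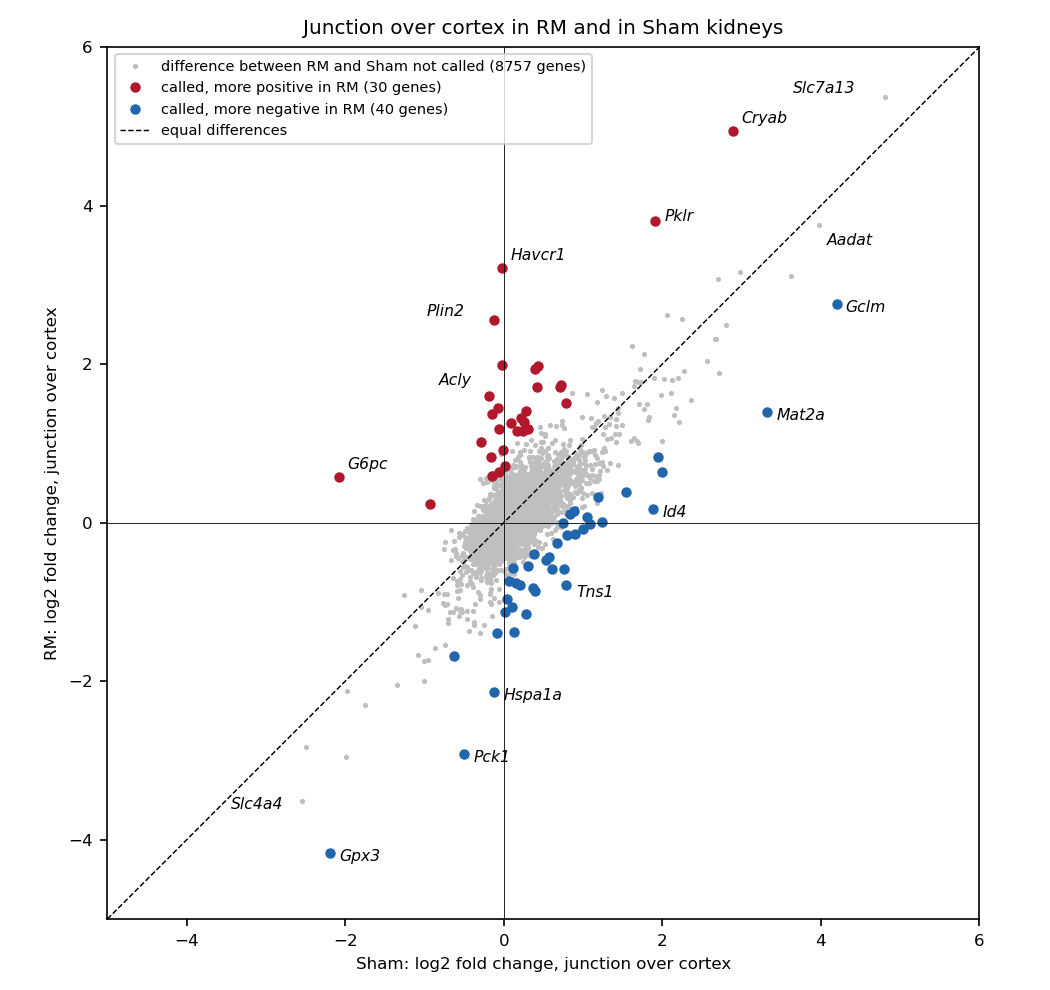
Log2 fold change of junction over cortex in RM (vertical) against Sham (horizontal), 1 point per gene, coloured where the difference between RM and Sham passed an adjusted p of 0.05. Havcr1, Plin2 and Acly lie on the vertical axis, with differences in RM and near 0 in Sham, while Slc7a13 and Aadat lie near the line of equal differences.

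In RM-HS kidneys 652 genes were higher (7.39%) and 195 lower (2.21%) at the junction, 847 in all (9.6%). The split was 599 and 361 under quantile normalization and 1002 and 82 with the negative probe subtracted. Of the RM list, 444 higher genes (79.7%, and 68.1% of the RM-HS list) and 118 lower genes (64.8% and 60.5%) were shared, and across genes r was 0.868 and rho 0.727. The difference between RM and RM-HS passed for 20 genes (0.227%), 5 positive (0.0566%) and 15 negative (0.17%), and for none in limma with 1 mean per well run, where 82 had an unadjusted p under 0.05. With the negative probe subtracted 1 gene passed, none of those named here, and 10, 8, 6 and 12 passed without RM 1, RM 2, RM-HS 2 and RM-HS 3. Slc2a5 was higher at the junction by 1.97 ± 0.18 in RM and 0.51 ± 0.18 in RM-HS (difference 1.46 ± 0.25, adjusted p = 1.07e-04), and the differences of G6pc (1.44 ± 0.31), Gpi1 (1.12 ± 0.21) and Acly (1.04 ± 0.18) had the same sign. Pck1 (-1.90 ± 0.40) and the coagulation starter F3, tissue factor (-1.55 ± 0.27), had negative differences. F3 had medians of 129.9 at the RM junction and 191 in RM cortex, against 378 and 141 in RM-HS. Calls were lost without RM-HS 2 for F3 (adjusted p = 0.0987), without RM 1 or RM-HS 2 for Pck1 (0.801 and 0.0987) and without RM 2, RM-HS 2 or RM-HS 3 for G6pc (0.9964, 0.0987 and 0.0822). Havcr1 (0.30 ± 0.25, adjusted p = 0.9998) and Plin2 (0.09 ± 0.30, adjusted p = 0.9998) did not pass, and their medians at the RM-HS junction were 371 and 567.

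Against RM medulla, 809 genes were higher at the RM junction (9.17%) and 574 lower (6.5%), 1383 in all (15.7%), against 484 higher and 615 lower with the negative probe subtracted. Of the 557 genes higher at the junction than in cortex, 331 were also higher than in medulla (59.4%) and 23 were lower (4.1%), so that most stood above the areas on both sides. Slc7a13 (5.37 ± 0.18), Pklr (4.37 ± 0.17), Plin2 (3.96 ± 0.21), Cryab (2.81 ± 0.22) and Havcr1 (2.49 ± 0.18) belonged to the first kind. Slc12a1 (-1.73 ± 0.20) and Mt2 (-1.02 ± 0.19) belonged to the second, with medulla medians of 432 and 6352. Of the 16 injury and repair genes as a list, 4 were higher at the RM junction than in RM medulla (9.17% of all genes). In that list 10 were lower than in medulla (6.5%), and the median was -0.76. Of the 182 genes lower at the junction than in cortex, 34 were lower than in medulla as well (18.7%) and 23 were higher (12.6%), Pck1 (1.24 ± 0.28) and Gpx3 (1.77 ± 0.30) being 2 of those 23.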

How the data were processed

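ROIs of rat kidney sections were profiled with the GeoMx mouse whole-transcriptome panel. The authors deposited 1 table of Q3-normalized signal for 132 ROIs and 9271 genes. Every value was a whole multiple of its ROI's step within 0.0001, but a count test was not run. Genome builds GRCh38 and hg38 are named in the submitters' processing notes; the software was not given in the sources used here.

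Genes above 2 times the negative probe in fewer than 10% of ROIs were dropped (444), which left 8827. limma 3.58.1 (R 4.3.3, statmod 1.5.0) was fitted on log2(signal + 1) with 16 means of group and area, a plate term and the well run as a random block (correlation 0.13) over 131 ROIs, without the 1 RM glomerular ROI on plate A. All tests are two-sided, with Benjamini-Hochberg adjustment and a threshold of 0.05. The tests between groups are contrasts of the same fit. The fit was tested on simulated data. The alternatives were other scalings, filters, pseudocounts, blocks, weights and sets of ROIs, and leaving out each well run.

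The genes named are Havcr1, Slc7a13 and Plin2, the 12 largest rises and 12 largest falls, up to 4 called members of each of 26 lists, and the largest differences from Sham (6 of each sign) and RM-HS (3 of each sign). Other list members are given as values, and some genes are not reported here. Groups, members and lists were chosen with earlier results of these data known. Of 85 named genes, 80 have their mouse symbol in the rat RefSeq table.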

Additional observations from a re-analysis of the deposited data

Results flagged for a closer look

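Single ROIs stood apart from the rest of their area in 11 of 170 groups examined by Dixon's criterion, of which chance flags about 1 in 20. The junction ROI RM CMJ 6, in the well run RM 2, did so for 4 genes: it was lowest for Atp5b (373, next 504), Gclm (1482, next 2083) and Gss (213, next 297) and highest for Ccn2 (90.2, next 62.8). Without it the calls of Ccn2, Cd74, Aqp3 and Egf between RM junction and RM cortex ended (adjusted p in limma 0.0865, 0.0752, 0.0558 and 0.0594). In other junction ROIs, Hspa1a was high in RM CMJ 5 (65.9) and Slc8a1 in RM CMJ 8 (64.7). In cortex, Egf was high in RM C 3 (748), and Pck1 was low in RM C 4 (156), Sox9 in RM C 5 (15.1), and Sema3g (30.2) and Slc38a3 (27.2) in RM C 6. All of these ROIs except RM CMJ 8 and RM C 3 belonged to the run RM 2.

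The junction minus cortex difference of 21 named genes differed between RM and Sham in limma. On the log2 scale, RM minus Sham, it was positive for Havcr1 (3.23), Plin2 (2.68), G6pc (2.66), Cryab (2.05), Acly (2.01), Pklr (1.90), Slc2a5 (1.54), Gpi1 (1.29), Sox9 (1.02) and Btg2 (0.99). It was negative for Pck1 (-2.41), Hspa1a (-2.02), Gpx3 (-1.97), Mat2a (-1.92), Id4 (-1.71), Tns1 (-1.57), Gdf15 (-1.51), Gclm (-1.46), Egf (-1.35), Atf3 (-1.30) and Jun (-1.01). Between RM and RM-HS it differed for 8 of the named genes, positive for Slc2a5 (1.46), G6pc (1.44), Gpi1 (1.12) and Acly (1.04) and negative for Hspa1a (-1.999), Pck1 (-1.90), F3 (-1.55) and Btg2 (-0.99). Btg2 was thus more positive in RM than in Sham and less positive than in RM-HS. The call of Btg2 against RM-HS ended without RM 1 (adjusted p = 0.942), without RM 2 (0.955), without RM-HS 2 (0.346) and without RM-HS 3 (0.696).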

How the results depend on the processing

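The 739 genes called between RM junction and RM cortex became 1774 (987 higher, 787 lower) with a variance weight for each area, 1166 on plate C only, 3266 (1263 and 2003) with only the 17 ROIs and 3240 (1277 and 1963) with the well run as a fixed term there, and 308 with 1 mean per well run and area. Leaving out 1 well run gave 452 to 526. The 70 differences between RM and Sham became 146 under quantile normalization, 36 with the negative probe subtracted, 311 with area weights, 13 with run means and 175 on plate C only, and 33 to 100 without 1 run. The 20 between RM and RM-HS became 1 with the negative probe subtracted, 13 with no random block, 90 with area weights, 0 in limma with run means (82 at an unadjusted p under 0.05) and 45 on plate C only, and 6 to 27 without 1 run. The Sham count of 698 became 1166 under quantile normalization, 1599 with area weights and 260 with run means (481 to 537 without 1 run). The RM-HS count of 847 became 2672 with area weights, 376 with run means and 1479 on plate C only (510 to 604 without 1 run), and that of RM junction against RM medulla, 1383, became 2690 with area weights and 732 with run means (873 to 975 without 1 run). Run means and left-out runs hold fewer samples by construction; the cause of the other shifts was not tested. Of 74 named genes called between RM junction and RM cortex, 49 were called under every alternative run and 25 lost the call under at least 1, none with the other sign; of 21 called between RM and Sham 8 were called throughout, and of 8 between RM and RM-HS none was. Among the named genes not called, G6pc, Sema3g, Cdh5, Plvap, Ckm, F3 and Hba-a1 were called under at least 1 alternative. Hba-a1 turned to -0.066 under quantile normalization (adjusted p 0.940). Median-ratio scaling and leaving out the ROI RM CMJ 6 were chosen after seeing the data and moved none of these whole-table counts by over 1.5 times, while median-ratio scaling moved some list counts, collecting duct markers lower from 4 to 2 among them. The planned count test was not run. The labels carry no replicate numbers, so pairing was tried by well run only (the fixed term and the run means above). ROIs share animals in an unstated way, so p-values over ROIs are too small, and genes near the negative probe have little measurable range.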
